A study of Mus musculus with 4 samples.

Results

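The comparison described here is Menin knockout (KO) against wild type (WT) in the longer of the 2 Th2 cultures, the one named as 3 weeks. Every gene symbol of the 2 deposited tables was taken, values on several lines of 1 symbol were summed, and a symbol was compared when its mean over these 2 libraries reached 1 FPKM (fragments scaled to the length of the transcript and to how deeply the library was read). That left 10887 of 23284 symbols, in 2 of the 4 libraries of the series. Both groups came from splenic CD4 T cells of C57BL/6 mice. The cells were first kept for 5 days in 15 ng/ml IL-2 plus 10 ng/ml IL-4, then for 2 days with no added cytokine. They were then restimulated for 5 days on immobilized antibody to the T cell receptor, in IL-2 plus an antibody that blocks IL-4. Summed, the stated steps are shorter than 3 weeks. The WT and KO libraries taken after the first 5 days are used as a second, separate pair. The sources used here do not say how Menin was deleted, in which cells, or whether mice were pooled. Each group is 1 library, so no difference below has a replicate check and none was tested.

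Menin, the product of Men1, is a scaffold protein of Trithorax group complexes that hold the histone methyltransferases MLL1 and MLL2, which keep active genes marked. Th2 cells are CD4 helper T cells that secrete IL-4, IL-5 and IL-13 under the transcription factor GATA3. Granzymes and perforin are the granule proteins with which CD8 T cells and NK cells kill, and helper cells carry them at lower levels. Interferon-stimulated genes, ribosome synthesis and the cell cycle are other programmes that activated T cells switch on.

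The inferred depth was 20.7 to 23.6 M reads a library. It was chosen for each library as the depth that put the largest share of low values at steps of whole reads. At that depth 53.1% to 57.0% of the values under 5.5 reads lay within 0.05 of a whole number. Evenly spread values give 10% at a depth fixed in advance, so these fitted shares are no separate check of the depth. The ranges given in brackets for Men1 and Igfbp4 are exact 95% counting intervals from the inferred reads, which cover counting error only. Men1 stood at 25.4 FPKM in WT against 5.88 FPKM in KO at 3 weeks, which is 23.1% of WT (20.3% to 26.2%), and at 32.8 and 10.3 FPKM at 5 days. Markers of T cells were present in both 3-week libraries: Cd4 had 212 FPKM in WT against 307 FPKM in KO, while Cd3e had 206 and 318 FPKM. Of the 10 T cell markers, Cd3g was past 2-fold on the higher side (389 and 1028 FPKM) and Cd5 (81.3 and 3.51 FPKM) and Cd28 (70.4 and 32.1 FPKM) on the lower. Of the 3 CD4 helper markers, Cd40lg was past it on the lower side (59.5 and 3.57 FPKM). The 7 Th2 markers found in the tables summed to 449 FPKM in WT against 154 FPKM in KO. The 7 B cell markers summed to 0.155 and 0.326 FPKM, and the 5 neutrophil markers to 0.125 and 0.333 FPKM.

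Differences were taken as log2((KO + 1)/(WT + 1)) in FPKM, and a gene was counted as higher or lower when this value was at least 1 in size. By that rule 908 genes (8.34%) were higher in KO and 897 (8.24%) were lower, and 9082 (83.4%) lay between. A gene under 1 FPKM in WT could pass the filter only through its KO level, and then could not be lower. The reverse holds for a gene under 1 FPKM in KO. Counts and medians over all gene lists below are therefore descriptions, also where this is not repeated. The median over all compared genes was -0.08, with quartiles of -0.49 and 0.32. Short RNA genes, whose values are unreliable at their length, account for 39 higher and 55 lower calls, which leaves 869 and 842. The higher genes had a median of 3.00 FPKM in WT against 13.7 FPKM in KO. The lower genes had a median of 21.9 FPKM in WT against 7.63 FPKM in KO. Both sides were defined by these same values, so the medians are no separate result. Differences of 8-fold or more, without short RNA genes, were found for 81 higher and 20 lower genes. Near the 2-fold rule, 115 higher genes lay within 0.1 above it and 138 genes within 0.1 below it, against 193 and 241 on the lower side. At the filter, 101 symbols had a mean of 1 to 1.1 FPKM (median 0.980 in WT and 1.11 in KO), and 130 symbols just outside had a mean of 0.9 to 1 FPKM (0.805 and 1.06). With upper quartile scaling, 1066 genes were higher and 702 lower, 60.3% of the called genes higher in place of 50.3%, and the median of all genes moved to 0.02.

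**Figure D1:**
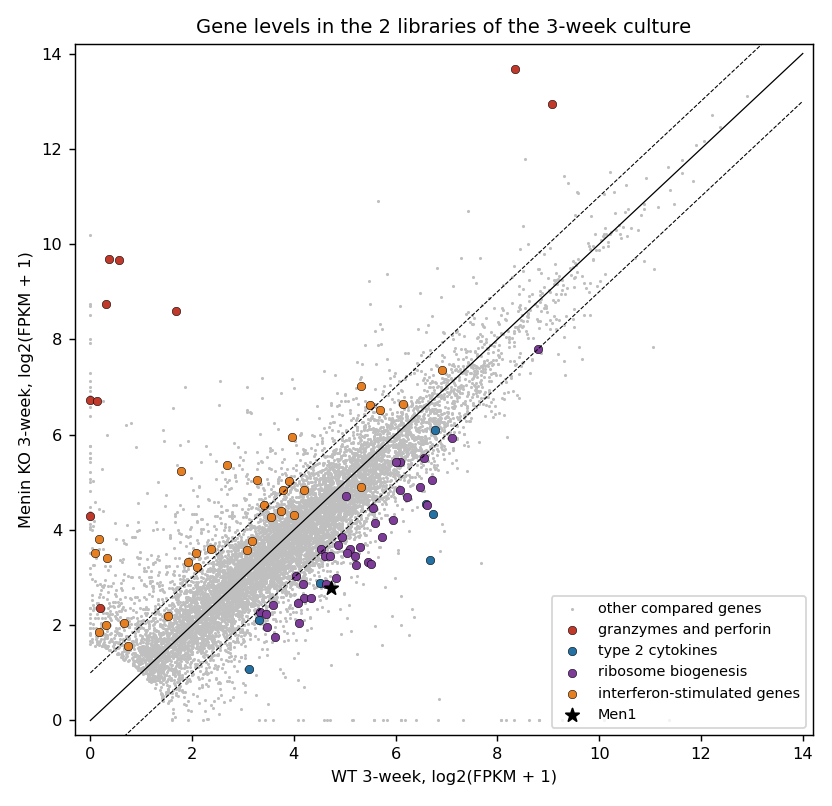
Each point is 1 of the 10887 compared genes, at its level in the WT library (x axis) and in the Menin KO library (y axis) of the 3-week culture, both as log2(FPKM + 1). The solid line marks equal levels and the dashed lines a 2-fold difference. Granzymes and perforin lie far above the lines, most type 2 cytokines and ribosome biogenesis genes below, and Men1 is drawn as a star at 25.4 and 5.88 FPKM.

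Every one of the 10 compared genes of the granzyme and perforin list stood at least 2-fold higher in KO, and 10 of 10 did at 5 days as well. Their median difference was 6.66 on the log2 scale at 3 weeks and 3.80 at 5 days. Each of them passed the filter through its KO level, apart from Gzma, Gzmb and Gzmc, so the count is a description. Gzmb, the granzyme that cleaves caspases, had 599 FPKM in WT against 2470 FPKM in KO at 5 days, then 539.7 and 7838 FPKM at 3 weeks. Gzma, the tryptase of the family, had 485 and 2197 FPKM at 5 days, then 322 and 13071 FPKM at 3 weeks. Gzmk, a second tryptase, was much lower, at 0.143 FPKM in WT against 4.16 FPKM in KO at 3 weeks. Prf1, which encodes the pore-former perforin, had 0.0912 FPKM in WT against 103.5 FPKM in KO. Gzmn, a less studied member, was listed at 0 in WT and stood at 18.7 FPKM in KO. The 10 genes spanned 0 to 539.7 FPKM in WT and 4.16 to 13071 FPKM in KO, and each was higher in the KO library.

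The promoters of these genes are shown because the genes stood higher together and Runx factors, transcription factors of T cells that bind TGTGGTT, are known in cytotoxic cells. Sequences are 300 bases, from 250 bases before to 50 after the start in the RefSeq promoter table, build GRCm38.p6, read in each gene's direction with the match on either strand in capitals (AACCACA is the same site read on the other strand). All 4 lie on the minus strand, at chr13:113100932-113101231 for Gzma, chr14:56262285-56262584 for Gzmb, chr14:56132544-56132843 for Gzmd and chr14:56159530-56159829 for Gzmg.
Gzma: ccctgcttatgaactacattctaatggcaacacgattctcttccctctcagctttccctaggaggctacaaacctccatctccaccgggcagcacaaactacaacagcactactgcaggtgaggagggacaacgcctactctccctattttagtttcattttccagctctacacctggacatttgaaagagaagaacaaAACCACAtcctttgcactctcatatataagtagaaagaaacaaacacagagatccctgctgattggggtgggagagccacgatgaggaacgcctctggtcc
Gzmb: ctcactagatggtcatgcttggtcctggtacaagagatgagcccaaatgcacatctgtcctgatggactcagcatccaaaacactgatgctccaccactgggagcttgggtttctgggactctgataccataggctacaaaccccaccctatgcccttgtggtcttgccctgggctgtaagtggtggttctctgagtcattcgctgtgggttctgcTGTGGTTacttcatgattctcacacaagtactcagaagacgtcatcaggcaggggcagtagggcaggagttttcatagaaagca
Gzmd: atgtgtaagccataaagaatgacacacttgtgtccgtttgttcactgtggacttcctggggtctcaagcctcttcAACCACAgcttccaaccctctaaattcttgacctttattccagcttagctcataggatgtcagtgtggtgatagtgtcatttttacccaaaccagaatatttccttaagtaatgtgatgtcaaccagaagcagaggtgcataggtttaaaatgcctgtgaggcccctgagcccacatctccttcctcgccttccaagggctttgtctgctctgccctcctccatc
Gzmg: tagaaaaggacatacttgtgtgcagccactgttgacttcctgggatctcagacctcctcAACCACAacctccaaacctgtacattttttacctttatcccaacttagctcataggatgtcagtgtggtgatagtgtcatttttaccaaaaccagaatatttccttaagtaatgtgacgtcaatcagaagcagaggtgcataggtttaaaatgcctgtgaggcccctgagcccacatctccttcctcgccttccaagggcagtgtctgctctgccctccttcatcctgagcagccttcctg
The motif TGTGGTT was found in 7 of 10 promoters of the list (Gzma, Gzmb, Gzmc, Gzmd, Gzme, Gzmf and Gzmg), and in 5.37% of all 27025 promoters of the table. It lay 51 bases before the start in Gzma, 34 in Gzmb, 175 in Gzmd and 191 in Gzmg. Gzmk, Gzmn and Prf1 had no match in this window. It is shown because it had the most matches of 11 motifs searched on both strands. Of the other 10, the interferon response element GAAANNGAA, the AP-1 motif TGANTCA, the T-box motif GGTGTGA, the STAT motif TTCNNNGAA and the NF-kappaB motif GGGANTTCC each matched 1 of the 10 promoters. The sterol element CACCCCAC, the GATA factor motif AGATAA, the E2F motif GGCGGGAA, the Ets motif ACCGGAAG and the E-box CACGTG matched 0. Gzmc to Gzmg are related copies, with 73.5% to 93.4% identity between their promoters, so their matches are not independent. Between Gzmb and the copies identity was 43.6% to 48%. A match is a description of letters and no site of binding was measured.

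Genes that pack and release granule contents differed less than the proteases. Of 24 compared members 9 were higher, 0 lower, with a median of 0.77 (all genes -0.08), and 6 were higher at 5 days. Nkg7, a granule membrane protein, had 43.5 FPKM in WT against 595 FPKM in KO. Sytl2, a synaptotagmin-like protein that docks granules, had 9.40 and 144 FPKM. Ctsw, a lysosomal protease of cytotoxic cells, had 4.84 and 139 FPKM. Serglycin, the proteoglycan that holds granzymes (Srgn), had 738 and 1551 FPKM. Lyst, a regulator of lysosome size, had 2.97 and 9.6 FPKM. The list ranged from -0.54 to 4.58 on the log2 scale.

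Receptors that NK cells and killer T cells use were detected mainly in KO. Of 29 genes of the NK-type list in the tables, 20 were under the filter and 9 were compared, all through their KO level, so no count is read from them. Cd244, a SLAM family receptor, stood at 0.0356 FPKM in WT against 15.9 FPKM in KO at 3 weeks, and at 0.229 and 2.72 FPKM at 5 days. Klrd1, the CD94 chain of a lectin-like receptor pair, had 0.127 and 11.1 FPKM, and its partner Klrc1 (NKG2A) had 0.0878 and 6.14 FPKM. Klrg1, a marker of highly differentiated effector cells, had 0.291 and 4.53 FPKM. Of 10 compared genes on the list of Fc receptors and activating adaptors, 9 were higher and 0 lower. Members under 1 FPKM in WT passed the filter only through their KO level, so this count is a description. Among the adaptors, Fcer1g stood at 0.186 FPKM in WT against 104 FPKM in KO, and Hcst (DAP10) at 31.0 and 103.5 FPKM. For Fcgr3, which encodes a receptor for IgG, the values were 0.624 and 72.8 FPKM. Cd247, another signalling chain of the list, did not reach 2-fold (0.18 on the log2 scale). Tyrobp (DAP12) was low, at 0.116 and 3.44 FPKM. Lat2, an adaptor related to LAT, had 15.6 and 79.2 FPKM.

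NK cells, CD8 T cells and myeloid cells could carry such RNA, so their markers are given beside this result, and their part in it was not tested. The 8 NK cell markers summed to 0.378 FPKM in WT against 10.6 FPKM in KO at 3 weeks, of which Eomes, also a T cell factor, was 0.360 and 6.36 FPKM. Ncr1, the defining NK receptor gene, was listed at 0 in WT and stood at 0.110 FPKM in KO. The CD8 markers Cd8a and Cd8b1 summed to 2.04 and 3.78 FPKM. The 8 monocyte and macrophage markers in the tables summed to 3.55 and 20.1 FPKM. The 3 of them that were compared were all at least 2-fold higher in KO, among them Itgam (2.48 on the log2 scale). Csf1r and Fcgr1 were listed at 0 in both. The 8 dendritic cell markers summed to 5.89 and 29.2 FPKM and the 7 mast cell and basophil markers to 10.5 and 18.5 FPKM. In bulk RNA, more cells of a type and more RNA per cell cannot be told apart.

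Type 2 cytokine genes stood on the opposite side. Of 7 compared, 6 were lower in KO, 0 higher, and the median was -2.04, against 0.50 at 5 days. Il13 stood at 1.62 FPKM in WT against 3.68 FPKM in KO at 5 days, then 105 and 19.1 FPKM at 3 weeks. Il5, the eosinophil factor, stood at 0.971 and 1.91 FPKM at 5 days, then 95.2 and 22.4 FPKM at 3 weeks. Il24, an IL-10 family member, had 101 and 9.31 FPKM at 3 weeks. Il10 itself did not reach 2-fold, at 108 and 67.2 FPKM. In both genotypes Il13 and Il5 were higher at 3 weeks than at 5 days.

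Among other secreted signals the picture was mixed, with 5 of 15 higher and 2 lower. Lif, an IL-6 family cytokine, stood at 67.5 FPKM in WT against 3.04 FPKM in KO at 3 weeks, and at 7.64 and 6.42 FPKM at 5 days. Ifng, the Th1 cytokine, stood at 0.168 and 6.03 FPKM. Csf1, the macrophage growth factor, had 19.9 and 62.1 FPKM. Clcf1, another IL-6 family member, had 4.67 and 23.1 FPKM. Of 7 compared chemokine ligands 4 were higher, among them Ccl5 at 47.4 and 286 FPKM and Ccl4 at 5.27 and 16.5 FPKM.

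Transcription factors of Th2 cells were partly lower. Of 18 compared, 5 were lower and 1 higher, with a median of -0.43. Msc, a bHLH repressor, stood at 78.5 FPKM in WT against 4.09 FPKM in KO, and Irf4, a factor of activated T cells, at 67.9 and 5.09 FPKM. Pparg, which Th2 cells use, had 64.1 and 21.9 FPKM, and Gfi1, a repressor, had 29.0 and 12.9 FPKM. Gata3 had 93.8 and 45.9 FPKM, which lies at the 2-fold rule. The higher one was Bhlhe40, a factor of cytokine expression, at 36.1 and 124 FPKM. The Th1 and effector list had 9 of 19 higher and 0 lower, with a median of 0.84. Tbx21 (T-bet) had 6.68 and 45.3 FPKM, Hopx had 4.54 and 42.5 FPKM and Hlx, a T-bet partner, had 3.99 and 23.9 FPKM. Id2, an inhibitor of E proteins, had 349 and 946 FPKM.

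Receptors for cytokines differed in both directions. Il2ra, the alpha chain of the IL-2 receptor, stood at 638 FPKM in WT against 152 FPKM in KO, while Il2rb, the beta chain, stood at 171 and 379 FPKM and Il2rg at 282 and 344 FPKM. Il4ra stood at 87.5 and 65.4 FPKM. Of 25 compared receptors outside those 2 pathways 10 were higher and 1 lower, with a median of 0.61. Il12rb2, part of the IL-12 receptor, stood at 3.51 and 41.7 FPKM, and Il18rap, of the IL-18 receptor, at 8.80 and 41.6 FPKM. Csf2rb, the chain shared by the IL-3, IL-5 and GM-CSF receptors, had 0.0601 and 23.2 FPKM at 3 weeks and 0.0105 and 1.74 FPKM at 5 days, and its near-copy Csf2rb2 can share reads with it. The lower one was Il1rl1, the IL-33 receptor gene, at 14.9 and 5.32 FPKM.

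Of the inhibitory receptors 9 of 16 were higher and 1 lower, with a median of 1.22 (0.71 at 5 days). Members such as Klrg1 and Nt5e passed the filter only through their KO level, and Btla only through its WT level. The count and median are therefore descriptions. Havcr2 (TIM-3) stood at 6.51 FPKM in WT against 52.3 FPKM in KO, Lag3 at 11.4 and 36.6 FPKM and Cd274 (PD-L1) at 5.27 and 32.7 FPKM. Lilrb4, an Ig-like inhibitory receptor, had 52.3 and 299 FPKM, and its neighbour Gp49a, a near-copy, had 41.4 and 236 FPKM. Btla was the lower one, at 4 and 0.0152 FPKM. Surface molecules that give help stood lower: Cd40lg, the CD40 ligand, at 59.5 and 3.57 FPKM, Icos at 124.5 and 50.8 FPKM and Cd28 at 70.4 and 32.1 FPKM. Of 25 costimulation and adhesion receptors 8 were lower and 5 higher. Of 12 TNF superfamily ligands 6 were lower and 0 higher, with a median of -0.90, and Lta (lymphotoxin alpha) had 29.4 and 2.50 FPKM. Tnfrsf8 (CD30) had 292.5 and 60.5 FPKM, whereas Tnfrsf9 (4-1BB) had 98.2 and 314 FPKM. Cd7, a surface protein of T and NK cells, had the largest difference on the costimulation list, at 0.857 and 52.2 FPKM.

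The receptor complex of T cells differed less, with 4 of 37 genes higher, 3 lower and a median of 0.18. Trat1, an adaptor that holds the complex together, stood at 33.7 FPKM in WT against 2.69 FPKM in KO. Txk, a kinase of the Tec family, stood at 0.0206 and 14.9 FPKM, and Cd3g at 389 and 1028 FPKM. The surface molecule Cd5, a negative regulator of T cell receptor signalling, stood at 81.3 and 3.51 FPKM, and Cd6, its relative, at 52.2 and 1.99 FPKM. In homing genes, Ccr7, which guides cells to lymph nodes, stood at 75.3 and 2.45 FPKM. Ccr2 had 4.12 and 47.2 FPKM and Ccr1 had 10.6 and 52.1 FPKM. The list of integrins and selectin ligands had 10 of 21 higher and 1, Icam2, lower, with Itga1, the collagen-binding alpha-1 chain, at 0.0511 and 17.2 FPKM and Itgb2 at 121 and 283.5 FPKM.

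Interferon-stimulated genes stood higher in KO, with 19 of 31 higher and 0 lower and a median of 1.13, against 1 of 31 and 0.12 at 5 days. Isg15, a ubiquitin-like modifier, stood at 5.41 FPKM in WT against 4.61 FPKM in KO at 5 days, then 2.44 and 36.8 FPKM at 3 weeks. Ifit1, an RNA-binding antiviral protein, had 1.92 and 1.45 FPKM at 5 days, then 0.121 and 13 FPKM at 3 weeks. Irf7, an interferon-induced regulator of the same response, had 5.43 and 40.4 FPKM at 3 weeks. Rtp4 had 0.0616 and 10.5 FPKM, Rsad2 (viperin) had 0.259 and 9.61 FPKM, and Mx1 had 14.6 and 60.8 FPKM. Ifit1, Rtp4 and Rsad2 passed the filter only through their KO level, so the count and median of the list are a description. Ifi35 had the lowest value of the list, at -0.43 on the log2 scale. Ifnb1, the interferon beta gene, was listed at 0 in WT and at 0.0815 FPKM in KO.

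Promoters of 2 of these genes are shown because their matches to the element that interferon-activated factors bind are close together. The sequences are printed as above, with GAAANNGAA on either strand in capitals. They lie at chr4:156200769-156201068 on the minus strand for Isg15 and chr19:34640639-34640938 on the plus strand for Ifit1, build GRCm38.p6, from the RefSeq promoter table.
Isg15: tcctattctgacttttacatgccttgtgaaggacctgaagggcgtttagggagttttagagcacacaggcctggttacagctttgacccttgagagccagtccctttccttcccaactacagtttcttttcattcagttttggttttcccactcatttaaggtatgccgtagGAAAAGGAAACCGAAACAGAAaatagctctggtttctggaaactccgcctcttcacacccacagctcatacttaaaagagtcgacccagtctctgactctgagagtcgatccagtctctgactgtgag
Ifit1: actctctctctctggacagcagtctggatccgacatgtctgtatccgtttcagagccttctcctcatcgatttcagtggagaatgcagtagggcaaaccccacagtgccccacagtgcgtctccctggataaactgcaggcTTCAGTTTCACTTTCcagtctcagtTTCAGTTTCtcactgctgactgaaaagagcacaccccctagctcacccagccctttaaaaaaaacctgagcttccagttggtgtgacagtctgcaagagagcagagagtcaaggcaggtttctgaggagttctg
Each of them holds 3 matches, all overlapping in Isg15 and a pair of them in Ifit1, and 8.57% of all 27025 promoters of the table hold at least 1. For the interferon list as a whole only 21 of 31 members had a promoter in the table (67.7%), so a share over the list is void. In IFI200 and Schlafen genes, where 12 of 14 had a promoter, 5 of 12 held a match, and 4 of 12 held the AP-1 motif. Many of these genes are neighbouring members of 1 family, so their matches may not be independent.

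Gene families often counted with interferon responses were measured one by one. Members under 1 FPKM in WT, such as Ifi204, passed the filter only through their KO level, so the counts and medians are descriptions. The 6 Ifitm genes, membrane proteins that block virus entry, were all higher, with a median of 2.31 at 3 weeks and 2.21 at 5 days. Ifitm1 stood at 49.1 and 1913 FPKM, Ifitm2 at 370.3 and 3509 FPKM and Ifitm3 at 155 and 832 FPKM. IFI200 and Schlafen genes, DNA sensors and regulators of T cell quiescence, had 10 of 14 higher and 0 lower (median 1.51, against 0.15 at 5 days), among them Ifi204 at 0.400 and 16.7 FPKM and Slfn1 at 31.1 and 112 FPKM. Of the guanylate-binding and IRG GTPases 5 of 18 were higher. MHC class I presentation had 3 of 26 higher, and MHC class II presentation had 4 of 7 lower and 1 higher. Cd74, the invariant chain, stood at 13.5 and 2.58 FPKM, and H2-Ab1 at 3.50 and 17.8 FPKM. The Ly6 family, GPI-anchored surface proteins of lymphocytes, had 7 of 7 compared genes higher, with 5 more under the filter. Ly6c2 stood at 2.65 and 126 FPKM and Ly6a (Sca-1) at 665 and 2507 FPKM, and members that are copies of each other may share reads.

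**Figure D2:**
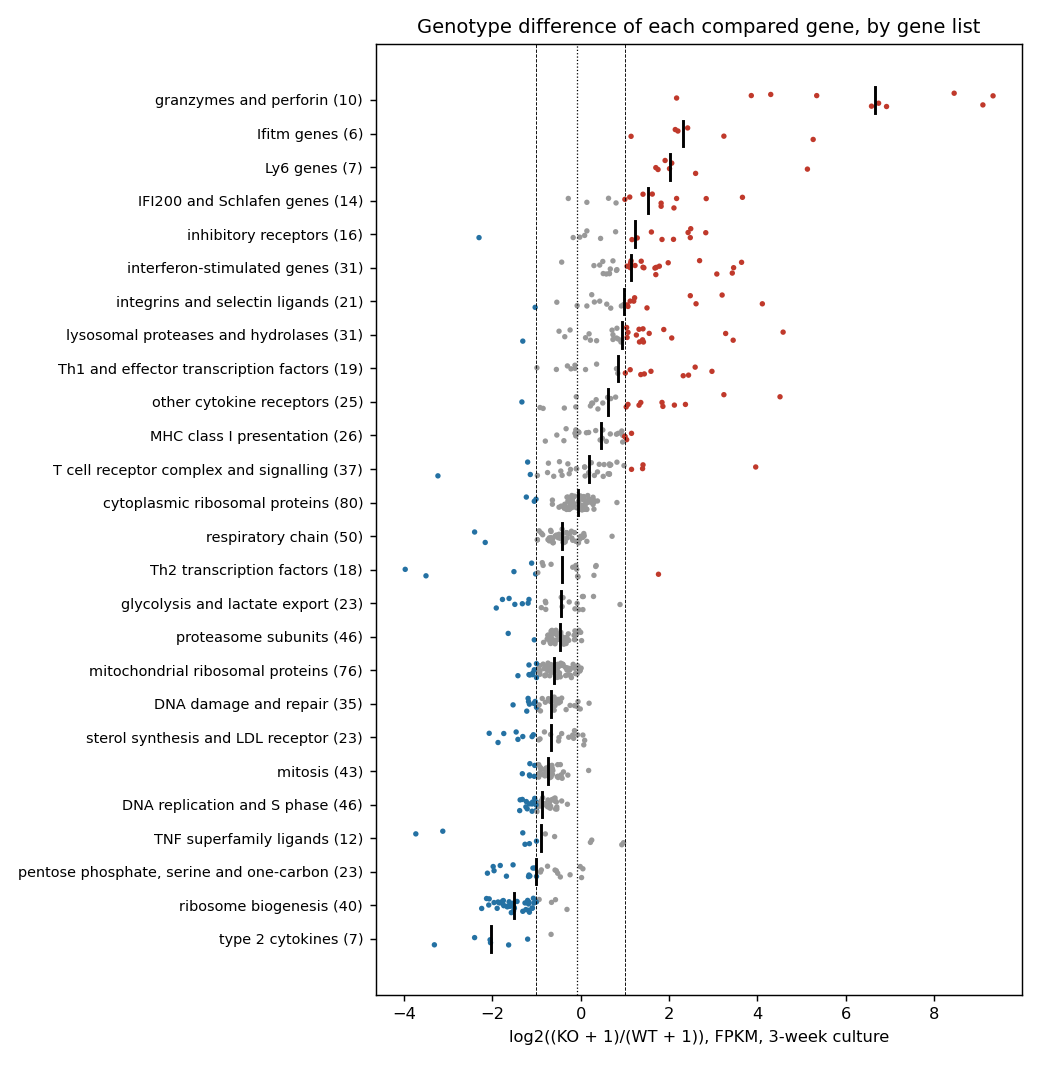
Each point is a compared gene and each row a gene list, with the number of compared genes in brackets and the x axis the log2((KO + 1)/(WT + 1)) in FPKM in the 3-week culture. Thick black marks are list medians, the dotted line is the median of all compared genes (-0.08), dashed lines mark 2-fold, and red and blue points lie past it. The granzyme list lies furthest to the right (median 6.66), and type 2 cytokines (-2.04) and ribosome biogenesis (-1.51) furthest to the left.

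Of the lists with at least 10 compared genes, the one for building ribosomes had the largest share of lower genes. Of 40 compared ribosome biogenesis genes 35 were lower in KO, 0 higher, and the median was -1.51 (all genes -0.08). At 5 days none reached 2-fold in either direction, and the median was -0.45. Nop58, a core protein of box C/D small nucleolar ribonucleoproteins, stood at 68.3 FPKM in WT against 41.2 FPKM in KO at 5 days, then 96.7 and 22.1 FPKM at 3 weeks. Dkc1 (dyskerin), of the box H/ACA particles, had 43.0 and 9.05 FPKM at 3 weeks. Fibrillarin, the rRNA methyltransferase (Fbl), had 73.6 and 25 FPKM, and nucleolin (Ncl) had 137 and 60.2 FPKM. Polr1b, a subunit of RNA polymerase I, had 11.4 and 2.38 FPKM. Pes1, Nop10, Ubtf and Polr1c were between -0.94 and -0.31 on the log2 scale, and Npm1 lay just outside the rule, at 444 and 221.5 FPKM. In contrast the cytoplasmic ribosomal protein genes, the structural parts, had a median of -0.06, with 3 of 80 lower (Rpl7l1, Rpl30 and Rps27l) and 0 higher. Mitochondrial ribosomal proteins had a median of -0.59 and 10 of 76 lower.

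Myc, a regulator of growth and of these genes in many cells, stood at 38.5 FPKM in WT against 20.3 FPKM in KO at 5 days, then 75.8 and 14.7 FPKM at 3 weeks. The E-box motif CACGTG, to which Myc binds, was added after the values were seen. It was found in 5 of the 34 promoters of the ribosome list that the table holds, and in 7.24% of all promoters of the table. Among other lists it was found in 6 of 37 DNA replication promoters and 2 of 35 mitosis promoters. It was also in 3 of 22 pentose phosphate, serine and one-carbon promoters, 3 of 16 sterol promoters and 0 of 12 IFI200 and Schlafen promoters. The largest share was 7 of 23 (30.4%), in the lysosomal list, which had 15 genes higher and 1 lower. The table held promoters for 74.2% of the lysosomal list and 69.6% of the sterol list. Only 78.8% of compared genes had a promoter there, so no share over them is given. A link to Myc was not tested. The list of pentose phosphate, serine, one-carbon and nucleotide genes had 11 of 23 lower and 0 higher (median -1), with Shmt1 at 20.8 and 4.07 FPKM and Atic at 70.1 and 17.2 FPKM. Of 23 glycolysis and lactate genes 7 were lower, of which Hk2, hexokinase 2, stood at 11.2 and 2.58 FPKM. Of 23 sterol genes 8 were lower, including Sqle at 23.9 and 4.95 FPKM. Of 46 DNA replication genes 13 were lower, 0 higher, and 46 of 46 lay below 0. The median was -0.88, and Mcm3 of the replicative helicase stood at 120.4 and 47.5 FPKM. The mitosis list had 6 of 43 lower, with a median of -0.75, and Ccnb1 (cyclin B1) had 53.4 and 20.8 FPKM. DNA repair genes had 9 of 35 lower and a median of -0.67.

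On the list of CDK inhibitors, D cyclins and the Rb family, 3 of 20 were higher and 0 lower. Cdkn2b (p15) stood at 2.52 FPKM in WT against 20.7 FPKM in KO, Btg2 at 21 and 96.7 FPKM and Btg1 at 16.5 and 62.2 FPKM. Cdkn2a, the Ink4a and Arf gene, was nearly equal, at 49.9 and 49.7 FPKM. Cdkn1b stood at 25.2 and 46.0 FPKM. In the BCL2 family, the pro-death gene Bcl2l11 (Bim) stood at 1.47 and 9.54 FPKM and the survival gene Bcl2 at 29.2 and 13.1 FPKM.

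Iron handling genes diverged. Tfrc, the transferrin receptor, stood at 39.3 FPKM in WT against 20.4 FPKM in KO at 5 days, then 116 and 10.9 FPKM at 3 weeks. Trf, transferrin itself, had 0.517 and 8.29 FPKM at 5 days, then 0.258 and 62.5 FPKM at 3 weeks. Ftl1, the ferritin light chain, had 362 and 1328 FPKM, while Fth1, the heavy chain, had 1087 and 1186 FPKM.

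Lysosomal and secreted proteins were often higher. Of 31 lysosomal proteases and hydrolases 15 were higher and 1 lower, with a median of 0.93. Ctsd (cathepsin D) had 170.2 and 1661 FPKM, Napsa had 7.44 and 90.9 FPKM and Grn (progranulin) had 39.0 and 147 FPKM. Of 25 matrix, growth factor and secreted genes 15 were higher and 2 lower, with a median of 1.48. Lgals3 (galectin-3) had 55.9 and 664 FPKM, Spp1 (osteopontin) had 44.2 and 424 FPKM and Col18a1 had 7.40 and 127 FPKM. Igfbp4 stood at 115 FPKM in WT against 0.372 FPKM in KO, which is 0.323% of WT (0.0783% to 0.739%). At 5 days it stood at 527 and 93.4 FPKM.

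Partners of Menin and of the opposing Polycomb group were measured too. In the Menin and Trithorax list, 3 of 21 compared genes were lower, and Men1, the knocked-out gene itself, is one of them. Of all compared genes 8.24% were lower and 8.34% higher. The others were Mllt3, at 18.6 and 8.02 FPKM, and Dot1l, a histone methyltransferase, at 17.2 and 7.66 FPKM. Of 31 Polycomb genes 5 were lower and 1 higher, and 3 were lower under median of ratios or upper quartile scaling. Neither list count is read as a result about these partners. Ezh2, the catalytic subunit, stood at 93.6 and 27.3 FPKM and Rbbp7 at 137 and 41.2 FPKM.

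**Figure D3:**
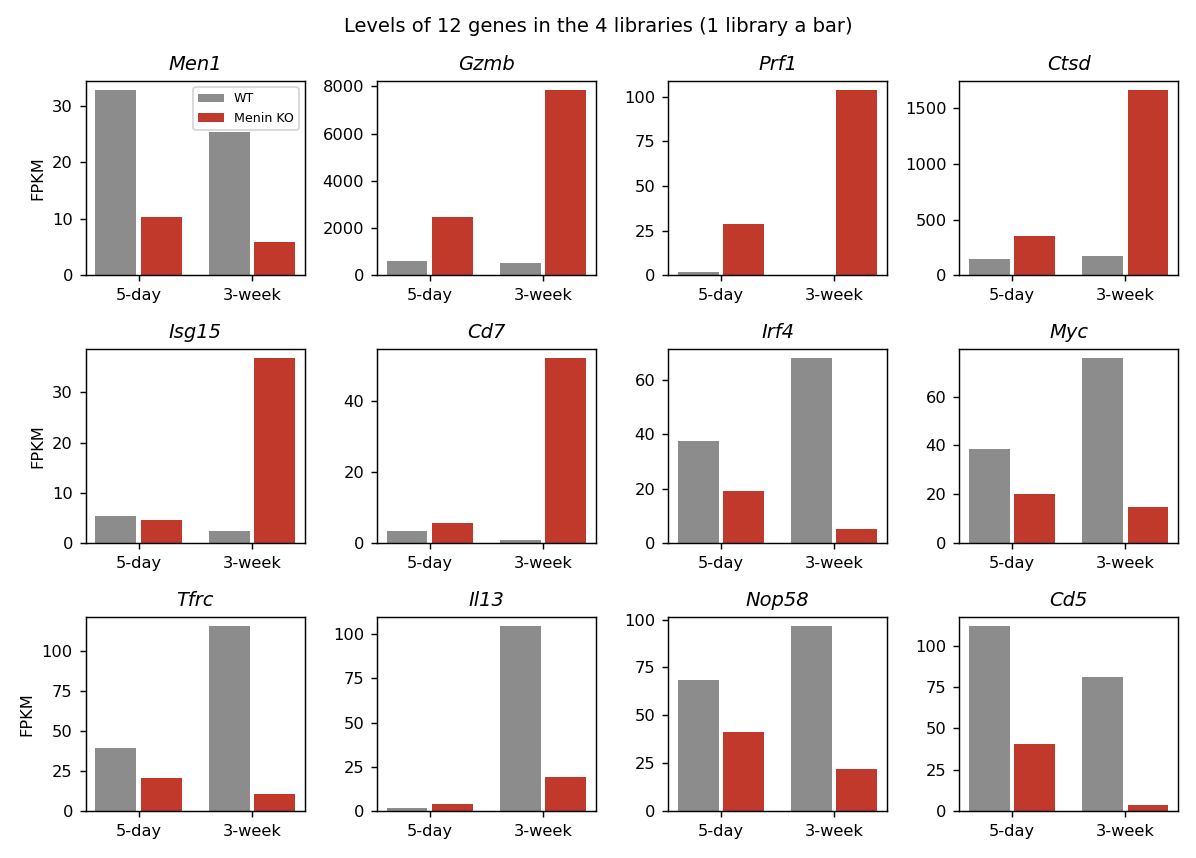
Bars show the FPKM of 12 genes in the WT (grey) and Menin KO (red) libraries at 5 days and 3 weeks, each axis starting at 0 and each bar 1 library. Isg15 and Il13 differ in the opposite sense at the longer culture from that at 5 days, while Men1, Gzmb, Ctsd and Nop58 stand on the same side at both times.

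In the 5-day pair, which shares no library with the 3-week pair, the share past the 2-fold rule was 2.64% on the higher side and 0.652% on the lower. Of the 869 genes higher at 3 weeks (short RNA genes left out) 208 were also higher at 5 days (23.9%) and 3 lower, and 809 lay above 0 (median 0.59). Of the 842 lower genes 29 were also lower at 5 days (3.4%) and 5 higher, and 743 lay below 0 (median -0.37). Genes are not replicates, and the difference between the times was not tested.

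Called genes lay next to each other more often than their share. Of 860 higher genes with a position, 154 (17.9%) had a higher gene as their nearest compared neighbour, where 8.08% of all genes are higher. For the lower genes it was 114 of 834 (13.7%), against 7.84%. The longest run, 10 genes, was the IFI200 cluster on chromosome 1, from 173350879 to 174031810 (GENCODE M21, GRCm38), Aim2 to Ifi205. A run of 9 on chromosome 14, from 56082166 to 56262260, held Mcpt8, Ctsg and the granzymes Gzme, Gzmd, Gzmg, Gzmn, Gzmf, Gzmc and Gzmb. On chromosome 13, 7 genes around Gzma and Gzmk (112987802 to 114157461) were higher, with their neighbours Ccno, Gpx8, Esm1, Snx18 and Arl15. Ifitm genes on chromosome 7 (140948958 to 141090510) gave 7, with B4galnt4 and Pkp3, and Ly6 genes on chromosome 15 gave 6. The longest lower runs had 5 genes each: Cd5 to Tmem109 on chromosome 19, and Myo6 to Irak1bp1 on chromosome 9. Many of these runs are gene families, whose copies can share reads. Around Men1 itself, on chromosome 19 (6334979 to 6340891), 8 of 180 compared genes within 5 Mb were higher and 13 lower (4.44% and 7.22%). Of all positioned genes 8.08% and 7.84% were. The lower run of 5 genes from Cd5 to Tmem109 (10717116 to 10882001) lies inside this window, and a link to the deletion was not tested.

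**Figure D4:**
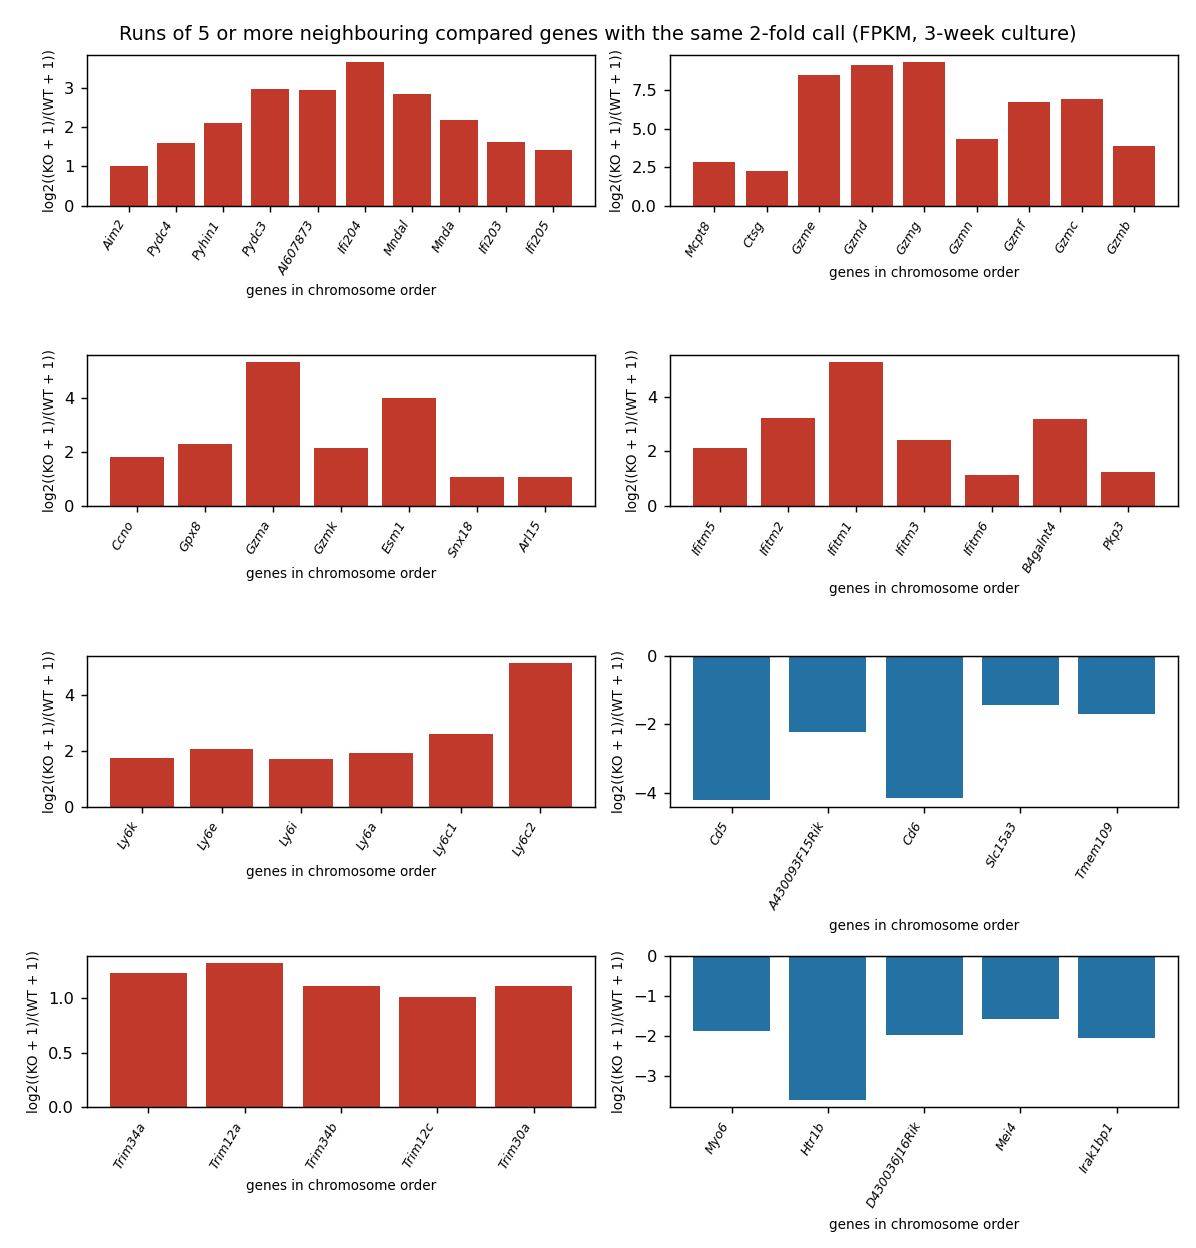
Each panel is 1 of the 8 runs of at least 5 neighbouring compared genes with the same call in the 3-week culture, and each bar a gene's log2((KO + 1)/(WT + 1)) in FPKM, in chromosome order, red for higher and blue for lower in KO. The granzyme run reaches 9.33 at Gzmg and the Trim run stays near the 2-fold line.

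Several of the largest differences lay outside these groups. Among the 30 highest, Tmem158, a membrane protein induced by Ras signalling, stood at 0.745 FPKM in WT against 74.5 FPKM in KO at 3 weeks, and at 0.0938 and 1.69 FPKM at 5 days. Avil (advillin), an actin-binding protein of sensory neurons, had 0.0298 and 31.7 FPKM. C5ar1, the receptor for complement C5a, had 0.130 and 20.7 FPKM and was listed at 0 in WT at 5 days. Dapk2, a kinase linked to cell death, was listed at 0 in WT and stood at 19.8 FPKM in KO. Esm1, a secreted proteoglycan and a neighbour of the granzymes on chromosome 13, had 2.38 and 54.1 FPKM. Ramp3, a partner of calcitonin-family receptors, had 1.74 and 57.5 FPKM. Pglyrp1, a peptidoglycan-binding protein, had 4.77 and 97 FPKM at 3 weeks and 13.6 and 75.5 FPKM at 5 days.

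Among the 30 lowest, Akr1c18, which breaks down progesterone, stood at 204 FPKM in WT against 8.96 FPKM in KO at 3 weeks, and at 11.9 and 3.26 FPKM at 5 days. Htr1b, a serotonin receptor, had 47 and 2.98 FPKM. Fyb (ADAP), an adaptor that links the T cell receptor to integrins, had 122 and 14.8 FPKM. Tuba8, an alpha-tubulin, had 17.3 and 0.639 FPKM. Grp, gastrin-releasing peptide, had 10.2 and 0.280 FPKM. Sval1 stood at 120 and 16.4 FPKM at 3 weeks but at 53.1 and 54.0 FPKM at 5 days. Cdca7, a regulator of DNA methylation in dividing cells, had 33 and 4.34 FPKM. St6gal1 and St6galnac2, enzymes that add sialic acid, had 13.2 and 0.889 FPKM and 15.8 and 0.807 FPKM. Of the 11 compared sialyltransferases 4 were lower and 1, St8sia1, was higher, at 0.566 and 9.53 FPKM.

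Counts for broader families stand beside the 8.34% higher and 8.24% lower of all compared genes. Of 146 solute carriers 12 were higher and 7 lower (median 0.03), and of 243 zinc finger genes 5 were higher and 5 lower (median 0.02). The unfolded protein response list had 2 of 26 higher and a median of 0.14, with Ern1 (IRE1 alpha) at 8.46 and 31.2 FPKM. The p53 list had 3 higher and 3 lower of 29. Proteasome subunits had 2 of 46 lower and a median of -0.47, with 45 of 46 below 0. The respiratory chain had 2 of 50 lower and a median of -0.42, with 45 of 50 below 0. Ndufa4, counted there, stood at 167 and 36.7 FPKM.

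Some genes hardly differed between the libraries. The most even of those above 100 FPKM in both were Rpl9 (576 and 576 FPKM), Rps18 (1338 and 1341 FPKM), the surface protein Cd47 (138 and 138 FPKM) and Hcls1, an actin-binding adaptor (235 and 235.5 FPKM). RNA decay and microRNA processing genes had 0 of 14 past 2-fold in either direction, and the list of NF-kappaB factors and inhibitors 1 of 24 (the inhibitor Tnfaip3, at 4.60 and 18.7 FPKM).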

How the data were processed

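RNA was extracted with TRIzol and sequenced after TruSeq Stranded mRNA preparation, per the labels' protocols. Reads were processed with Bowtie 0.12.8, TopHat 1.3.2 and Cufflinks 2.0.2 on build mm10, per the submitters' processing notes. The deposited values are FPKM, a unit read from Cufflinks in those notes and from the values. The sources used here do not state read layout, annotation, strand or filters.

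Lines of a symbol were summed (240 symbols, 702 lines). Symbols with a mean of at least 1 FPKM in the 2 libraries were compared as log2((KO + 1)/(WT + 1)), a pseudocount of 1, which understates differences of low genes. Genes past 1 in size were counted. Depth was inferred from whole-read steps of genes with 1 transcript in GENCODE M21, with 200 bases taken off the length. Named genes are Men1, the 30 highest and 30 lowest differences with at least 5 FPKM in either library, members of the lists, and the 10 most even genes. The members and lists were chosen with earlier results of these data known. A simulation served only to try out the 2-fold call, and its outcome is not given. It is no check of the inferred depth, the counting intervals, the summed lines or the filter. Nor is it a check of the motif and position steps, or of the spread between cultures. Python 3.11.15, NumPy 2.4.6, pandas 2.3.3, SciPy 1.17.1 and matplotlib 3.10.9 were used. No test was possible with 1 library a group. Alternatives were the pseudocount, the filter, 3 scalings, the highest line of a symbol, short RNA genes left out and the counting interval. Some genes named by these rules are left out of the text.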

Additional observations from a re-analysis of the deposited data

Results flagged for a closer look

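Short RNA genes apart, 8 compared genes were at least 2-fold higher in KO at one culture time and at least 2-fold lower at the other, which is why they are given here. The difference between the times was not tested. Lower at 3 weeks and higher at 5 days were Gm12238 (-3.32 on the log2 scale at 3 weeks), whose transcript is too short for a reliable value, Cox6b2 (-2.40), a cytochrome oxidase subunit, S100a5 (-2.19), Mt3 (-1.45), a metallothionein, and Ctsh (-1.31), a cathepsin. Higher at 3 weeks and lower at 5 days were Nt5e (1.16), which makes adenosine, Tcf7 (1.47), a factor of naive T cells, and the chemokine gene Ccl4 (1.48). Of these, 2 were low in both genotypes at 3 weeks. Tcf7 had 0.0622 FPKM in WT and 1.95 FPKM in KO, after 61.3 and 12.5 FPKM at 5 days. Nt5e had 0.387 and 2.105 FPKM at 3 weeks.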

How the results depend on the processing

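No paired analysis was possible because each group has 1 library. With a pseudocount of 5 FPKM, the counts were 458 higher and 440 lower, in place of 908 and 897. With a mean of at least 5 FPKM 588 were higher and 729 lower. With the whole counting interval required to lie beyond 2-fold, 769 were higher and 605 lower. That interval is of the ratio without a pseudocount, for symbols with a usable transcript length, so these genes need not be a subset of the main calls. With a pseudocount of 0.1 FPKM the counts were 1106 higher and 1124 lower. The interval and every alternative not named before it kept the counts of higher and lower genes within 1.5 times. Men1 stood at 23.6% to 25% of WT under the 3 scalings. Of the 897 lower genes, 742 kept the call under median of ratios scaling, 702 under upper quartile scaling and 841 with granzymes left out of the sum, and all 908 higher genes kept it under these 3. Gata3 lost the call under them, with log2 values of -0.92, -0.90 and -0.99. Under upper quartile scaling DNA replication had 8 lower in place of 13, mitochondrial ribosomal proteins 4 in place of 10, DNA repair 5 in place of 9 and Polycomb 3 in place of 5, while MHC class I presentation had 7 higher in place of 3 and zinc finger genes 8 in place of 5. The 3 scalings moved log2 ratios taken without the pseudocount by 0.03 to 0.11. With the pseudocount, genes low in KO moved less. Low genes depend on few reads, and the spread between cultures or mice was not measured.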
